A study of Homo sapiens with 4 samples.

Results

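The genes described here are the simple keratins KRT7, KRT8, KRT18 and KRT19 and the epithelial adhesion and junction genes CLDN7, EPCAM, CDH1, DSP, JUP and TJP1. They were chosen by name, as 10 of the 33538 genes listed for every library, and all 10 were found. The cells were HCEC 1CT, labelled as human colonic epithelial progenitors and carrying TERT and CDK4 for immortalisation, and their RNA was read by droplet single-cell sequencing. They stably expressed either shAPC, which targets the tumour suppressor APC, or the scrambled control shScr, under selection with puromycin. Harvest was 3 or 7 days after transduction, which gives 4 groups of 1 library each: shScr and shAPC at day 3, and both again at day 7. All were grown in the same medium with EGF, hydrocortisone, insulin, selenite, transferrin and serum. No value below has a replicate, no difference was tested, and no p-value is given.

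Simple keratins build the intermediate filaments of single-layered epithelia. A type II keratin (KRT7, KRT8) pairs with a type I keratin (KRT18, KRT19) in each filament, and KRT8 with KRT18 is the pair that gut epithelium makes throughout. E-cadherin (CDH1) holds neighbouring epithelial cells together at adherens junctions, desmoplakin (DSP) and plakoglobin (JUP) tie keratin filaments to desmosomes, and claudin 7 (CLDN7) and the scaffold ZO-1 (TJP1) belong to tight junctions and the lateral membrane. EPCAM is a surface protein of nearly every simple epithelium and binds claudin 7.

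Levels are in CPM: the UMIs (distinct captured molecules) of a gene, summed over the kept cells of a library and scaled to a fixed total of UMIs in those cells. In such sums, fewer cells expressing a gene and less RNA per cell cannot be told apart. A UMI marks the 3′ end of 1 molecule, so CPM was not divided by transcript length. The sums held 1116 cells and 39797418 UMIs in shScr day 3, 788 cells and 34944674 UMIs in shAPC day 3, 2600 cells and 31230868 UMIs in shScr day 7 and 1478 cells and 28451455 UMIs in shAPC day 7. Intervals are exact 95% intervals and cover counting error only, neither the spread between cells nor that between cultures. The kept cells of shScr day 7 were much shallower, with a median of 1330 UMIs against 21029.5 to 49685.5 in the other libraries. Libraries shared 2 to 25 cell barcodes pairwise, with the larger numbers, 23 and 25, between the shRNA arms of the same day. The targeted gene APC was at 16.1 CPM in shScr day 3 and 5.52 in shAPC day 3, and at 19.1 CPM in shScr day 7 and 6.61 in shAPC day 7, log2 ratios of shAPC to shScr of -1.54 and -1.53.

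The line expressed part of an epithelial set. KRT7 and TJP1 were the only members that reached 20 CPM, and together they held 68.0% to 80.2% of the UMIs of the 10 genes in each library. KRT8 and CLDN7 followed, KRT18, KRT19, JUP and DSP lay between 1.53 and 7.13 CPM, and EPCAM and CDH1 were at or under 2 UMIs per library. The order KRT7, TJP1, KRT8, CLDN7 was the same in the 4 libraries. The intervals of KRT7 and TJP1 overlapped no other gene's in any library, whereas those of KRT8 and CLDN7 overlapped in shAPC day 3 and in shScr day 7. Below CLDN7 the order varied, and the intervals of most neighbours overlapped.

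**Figure D1:**
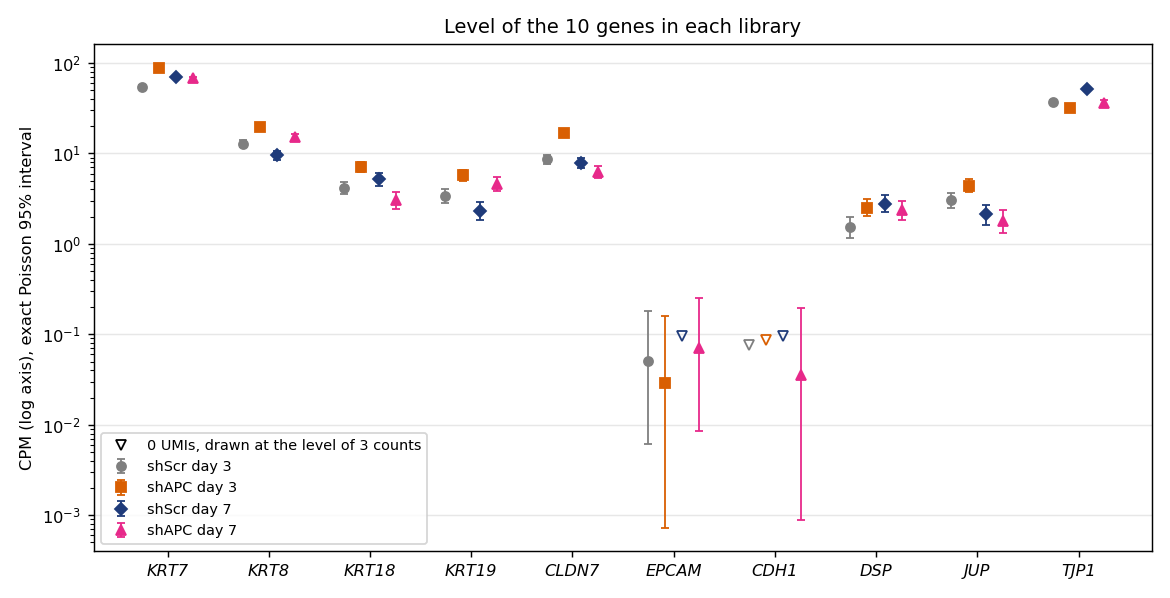
CPM of the 10 genes (horizontal axis) in each of the 4 libraries on a log axis, with exact Poisson 95% intervals. KRT7 at 54.2 to 87.1 CPM and TJP1 at 32.0 to 51.5 CPM stand above the rest, and EPCAM and CDH1 lie near or under the level of 3 counts, drawn as open triangles where a library held 0 UMIs.

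EPCAM (chr2:47345158-47387601, plus strand, GRCh38) had 2 UMIs in shScr day 3, 1 in shAPC day 3, 0 in shScr day 7 and 2 in shAPC day 7. CDH1 (chr16:68737292-68835537, plus strand) had 0 UMIs in the first 3 of these libraries and 1 in shAPC day 7. For CDH1, taking 3 counts as the limit that a count of 0 allows, 0 of 2600 shScr day 7 cells allows a share of cells with a UMI of up to 0.115%, and 0 of 788 shAPC day 3 cells a share of up to 0.381%. The upper bounds of the exact 95% intervals were 0.142% and 0.467%. In level, 3 counts correspond to 0.0754 to 0.105 CPM. Since both genes were at or under 3 counts in every library, no fold was computed, and no change of EPCAM or CDH1 with the shRNA was detectable at this depth. The barcodes removed for their mitochondrial share held 2 further EPCAM UMIs, 1 in each day 7 library, and no CDH1 UMI.

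The labelled colonic identity was checked with 14 genes of colonic epithelium. Of these, 10 were at or under 3 UMIs in every library and 8 of the 10 at 0, and none reached 20 CPM. CDX2, the intestinal master transcription factor, CDH17, an intestinal cadherin, and KRT20, the keratin of differentiated colonocytes, had 0 UMIs in the 4 libraries. VIL1, a microvillus protein, had 0 to 2 UMIs per library and LGALS4, a gut lectin, 2 to 4. Of 13 mesenchymal genes, 12 reached 20 CPM and none was at or under 3 UMIs, with VIM, the mesenchymal intermediate filament protein, at 4010 to 5303 CPM and COL1A1, a fibrillar collagen chain, at 927 to 1519 CPM. The 8 markers of blood, endothelial, liver, heart and glial cells summed to 0.276 to 0.527 CPM, and 6 of them were at or under 3 UMIs. By defining markers the colonic label was therefore not borne out in the RNA, although KRT7, KRT8 and CLDN7 were expressed.

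**Figure D2:**
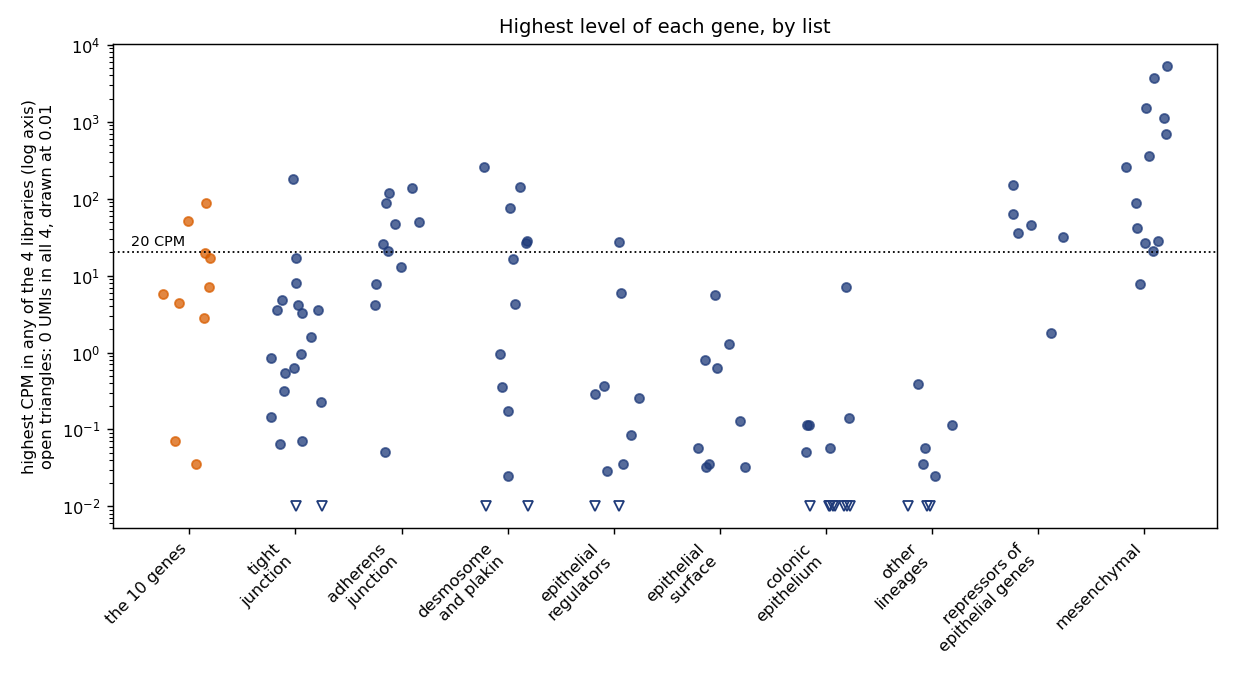
Highest CPM of each gene in any of the 4 libraries (log axis) for the 10 genes and 9 lists, with open triangles for genes at 0 UMIs throughout and a dotted line at 20 CPM. The colonic list has 8 of 14 genes at 0, and 12 of the 13 mesenchymal genes lie above 20 CPM.

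Other epithelial lists gave the same picture of a partial set. Of 10 transcriptional regulators and splicing factors of epithelia, 5 were at or under 3 UMIs, and KLF4, a zinc-finger factor, was the only gene to reach 20 CPM, with 9.0 CPM in shScr day 3, 26.9 in shAPC day 3, 12.0 in shScr day 7 and 8.86 in shAPC day 7. None of 9 epithelial surface genes reached 20 CPM, and 4 of them were at or under 3 UMIs. Of the 6 factors that repress epithelial genes, 5 reached 20 CPM, and their list summed to 193 CPM in shScr day 3, 316 in shAPC day 3, 196 in shScr day 7 and 237 in shAPC day 7. At each day 2 of these 6 were at least 1.5-fold higher in shAPC and 0 lower, against 26.8% of all genes higher at day 3 and 9.06% at day 7. SNAI2 (Slug) was the highest of them, with 71.8, 150, 71.5 and 93.8 CPM in the same order. ZEB1 lay at 27.7 to 35.7 CPM, ZEB2 at 18.4 to 31.7, TWIST1 at 23.8 to 45.1 and TWIST2 at 40.9 to 62.7 CPM.

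SNAI and ZEB factors bind the E-box CACCTG, which reads CAGGTG on the other strand. The 250 bases before the RefSeq start that coincides with the MANE Select transcript were searched for it on both strands, in the members for which the table of RefSeq starts (GRCh38.p14) holds such a start. These were CLDN7, DSP, JUP and TJP1. The window of CLDN7 held 4 E-boxes, that of DSP 2, and those of JUP and TJP1 none. Other RefSeq starts of these genes differed. A JUP window 735 bases from the MANE Select start held 2, and a CLDN7 window 735 bases away held 0. A TJP1 window 146581 bases away held 1, and those 989 and 1794 bases away held 0. Of 35116 RefSeq windows of the same length, 17.5% held at least 1 E-box and 2.53% at least 2. The stretches of 30 bases below come from the windows at the MANE Select start, with the E-boxes in capitals. They are shown because the E-boxes are the letters that the expressed repressors are known to read. A match is a description of the sequence, and binding was not measured. All are 5′ to 3′ on the gene's strand.
CLDN7, chr17:7262635-7262664, minus strand: tttcttcctcctCACCTGggcaaggagggg
CLDN7, chr17:7262596-7262625, minus strand: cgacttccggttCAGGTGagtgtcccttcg
CLDN7, chr17:7262479-7262508, minus strand: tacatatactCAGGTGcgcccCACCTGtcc
DSP, chr6:7541481-7541510, plus strand: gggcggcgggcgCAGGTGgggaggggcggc
DSP, chr6:7541574-7541603, plus strand: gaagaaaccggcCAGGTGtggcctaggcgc
The pair in the third CLDN7 stretch begins 20 and 9 bases before the start. CLDN7 and DSP, whose windows at the MANE Select start held E-boxes, were expressed in the 4 libraries. DSP was the lowest of the 8 detected members in both day 3 libraries. JUP, whose window at that start held none, was the lowest in both day 7 libraries, at 2.11 CPM in shScr and 1.79 in shAPC. A link between E-boxes and level was not tested.

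How the 10 genes moved with APC knockdown was asked within each day. At day 3 KRT7, KRT8, KRT18, KRT19, CLDN7, DSP and JUP were higher in shAPC than in shScr, with log2 ratios of 0.54 to 0.97, and TJP1 was lower, at -0.21. At day 7 KRT8 and KRT19 were again higher, at 0.66 and 0.97, KRT18, CLDN7 and TJP1 were lower, at -0.77, -0.34 and -0.49, and the intervals of KRT7, DSP and JUP included 0. KRT8 and KRT19 were thus higher at both days, TJP1 lower at both days, and KRT18 and CLDN7 on opposite sides of shScr at the 2 days, with intervals that excluded 0. For KRT7 and DSP the day 7 result depended on the cells kept. With all deposited barcodes their ratios were -0.19 (-0.27 to -0.12) and -0.71 (-1.06 to -0.36). With a mitochondrial limit of 10% both intervals excluded 0 as well.

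The member ratios stand against a shift of all genes at day 3. Over the 12978 genes with at least 50 UMIs in the 2 day 3 libraries together, the median log2 ratio was 0.34, and 26.8% of genes were at least 1.5-fold higher and 2.12% at least 1.5-fold lower in shAPC. Of the 8 members with 50 UMIs, 6 were at least 1.5-fold higher and 0 lower, and their median was 0.70. The shift was larger in low genes, with a median of 0.45 for genes of 50 or more but under 300 UMIs in the pair, where DSP and JUP lie, and 0.40 for genes from 300 to under 1000 UMIs, where KRT18, KRT19 and CLDN7 lie. With TMM scaling, which moved every day 3 ratio by -0.38, the 7 ratios were 0.16 (JUP) to 0.60 (CLDN7), and that of TJP1 became -0.59. The intervals of JUP (-0.20 to 0.51) and DSP (-0.15 to 0.83) then included 0, and those of the other 5 did not. At day 7 the median of 12539 genes was -0.01. There 9.06% of genes were at least 1.5-fold higher and 8.1% lower, against 2 members higher (KRT8 and KRT19) and 1 lower (KRT18) of 8, whose median was -0.24. Past 2-fold, on log2(CPM + 1) and among genes that reached 20 CPM in either library, were 4.29% of 5175 genes at day 3 and 2.56% of 4573 at day 7, and neither KRT7 nor TJP1, the 2 members that reached this level.

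**Figure D3:**
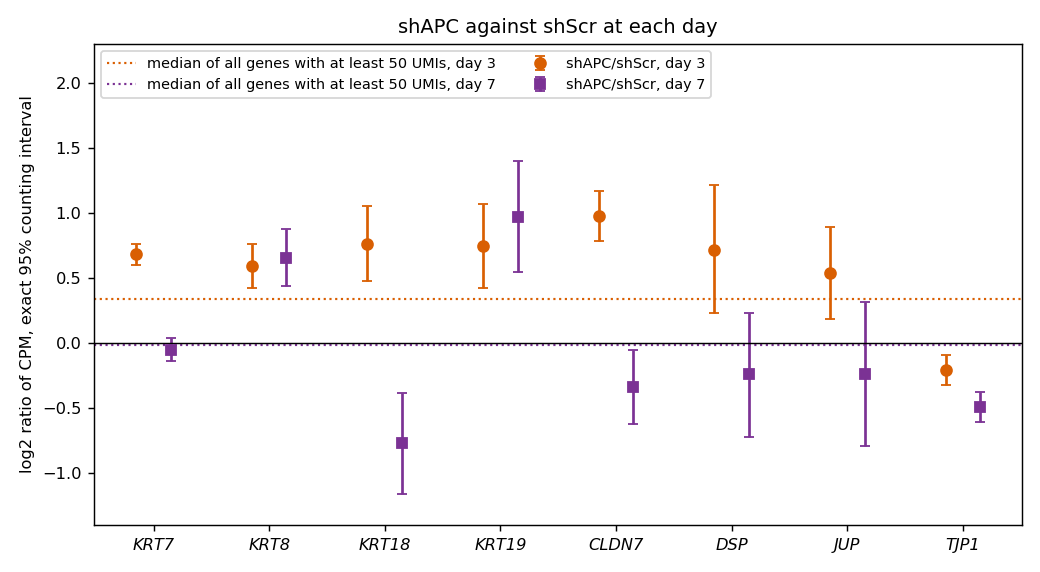
Log2 ratio of CPM, shAPC over shScr, for the 8 members with at least 50 UMIs, at day 3 (circles) and day 7 (squares) with exact 95% counting intervals; dotted lines mark the median of all genes with at least 50 UMIs, 0.34 at day 3 and -0.01 at day 7. At day 3 7 of the 8 genes lie above 0 and TJP1 below, and at day 7 KRT8 and KRT19 alone have intervals above 0.

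KRT7 (chr12:52232520-52252186, plus strand) is a type II keratin of ductal and glandular epithelia. It had 2159 UMIs (54.2 CPM, 52.0 to 56.6) in shScr day 3, 3044 (87.1 CPM, 84.0 to 90.3) in shAPC day 3, 2184 (69.9 CPM, 67.0 to 72.9) in shScr day 7 and 1920 (67.5 CPM, 64.5 to 70.6) in shAPC day 7. The shAPC day 3 library was the high one, and the 2 day 7 libraries overlapped in their intervals. On the log2 scale shAPC exceeded shScr by 0.68 (0.60 to 0.76) at day 3, and at day 7 the ratio was -0.05 with an interval of -0.14 to 0.04. The day 3 ratio was 0.39 without the deepest 5% of cells and 0.14 as a mean over cells of CPM. Its end overlaps the annotated span of KRT86, a hair keratin that had 8 to 22 UMIs per library. KRT7 also depended on depth. In shScr day 3 it was at 183 CPM in the 217 cells under 2000 UMIs, against 51.9 CPM in the 607 cells of at least 30000 UMIs, and in shScr day 7 at 110 CPM in 1402 cells against 67.0 CPM in 428.

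KRT8 (chr12:52897187-52949954, minus strand) and KRT18 (chr12:52948871-52952906, plus strand) are neighbours whose annotated spans overlap at their 5′ ends. KRT8 had 512 UMIs (12.9 CPM) in shScr day 3, 678 (19.4) in shAPC day 3, 299 (9.57) in shScr day 7 and 429 (15.1) in shAPC day 7. The shAPC library was the higher at each day, with log2 ratios of 0.59 (0.43 to 0.76) and 0.66 (0.44 to 0.87). The KRT8 level was lower at day 7 in both arms, at -0.43 in shScr and -0.36 in shAPC. In shAPC the median of all genes was -0.31, and with TMM scaling the KRT8 ratio was -0.06 (-0.24 to 0.12). KRT18 had 167 UMIs (4.20 CPM), 249 (7.13), 161 (5.16) and 86 (3.02) in the same order of libraries. It was highest in shAPC at day 3 and lowest in shAPC at day 7, with log2 ratios to shScr of 0.76 (0.48 to 1.06) and -0.77 (-1.17 to -0.38). Without the 5% of cells with the most UMIs the day 3 ratio was 0.24 (-0.10 to 0.58). The annotation names 51 KRT8 and 68 KRT18 pseudogenes, and how reads that match several copies were assigned could change both counts.

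Because the 2 proteins pair in equal numbers, the share of KRT18 in the UMIs of KRT8 and KRT18 was taken, a value that does not depend on the scaling between libraries. It was 24.6% (21.4 to 28.0) in shScr day 3, 26.9% (24.0 to 29.8) in shAPC day 3, 35.0% (30.6 to 39.6) in shScr day 7 and 16.7% (13.6 to 20.2) in shAPC day 7. KRT8 RNA was thus in excess in each library, and the day 7 libraries lay on either side of the day 3 libraries, with intervals that overlapped no other library's. Without the deepest 5% of cells the interval of shAPC day 7, 13.9 to 21.1, did overlap both day 3 intervals. These were 18.2 to 24.3 in shAPC and 20.9 to 28.0 in shScr. Of the cells with a KRT18 UMI, 73 of 132 also had a KRT8 UMI in shScr day 3, 94 of 135 in shAPC day 3, 42 of 126 in shScr day 7 and 36 of 73 in shAPC day 7. The share of all kept cells with a KRT8 UMI was 29.3%, 44.4%, 9.69% and 21.7%, and deeper cells are more likely to show both.

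KRT19 (chr17:41523617-41528308, minus strand), the smallest keratin, had 136 UMIs (3.42 CPM, 2.87 to 4.04) in shScr day 3, 200 (5.72 CPM, 4.96 to 6.57) in shAPC day 3, 73 (2.34 CPM, 1.83 to 2.94) in shScr day 7 and 130 (4.57 CPM, 3.82 to 5.43) in shAPC day 7. The 2 shAPC libraries were above the shScr library of their day, with log2 ratios of 0.74 (0.42 to 1.07) and 0.97 (0.54 to 1.40). A few cells carried much of this RNA. Cells with at least 3 KRT19 UMIs numbered 12, 18, 5 and 13 in the 4 libraries, in the order given, and held 84 of 136, 138 of 200, 21 of 73 and 66 of 130 UMIs. The highest cell had 28 UMIs, in shAPC day 3. Outside these cells KRT19 was at 1.32, 1.83, 1.67 and 2.28 CPM. The counting interval of the ratio covers neither the presence of such cells nor their number.

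In the KRT19-high cells, chosen here on KRT19, KRT7 was at 191 CPM against 52.3 in the other cells of shScr day 3, at 163 against 84.6 in shAPC day 3, at 318 against 68.9 in shScr day 7 and at 156 against 66.5 in shAPC day 7. They held no EPCAM and no CDH1 UMI in any library, where all kept cells together held at most 2 of either. KRT8 in them was at 10.9 CPM against 12.9 in shScr day 3, 17.0 against 19.5 in shAPC day 3, 15.1 against 9.55 in shScr day 7 and 33.7 against 14.9 in shAPC day 7, from 2 to 19 UMIs. With so few UMIs in these cells, no difference between the days was read from KRT8.

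**Figure D4:**
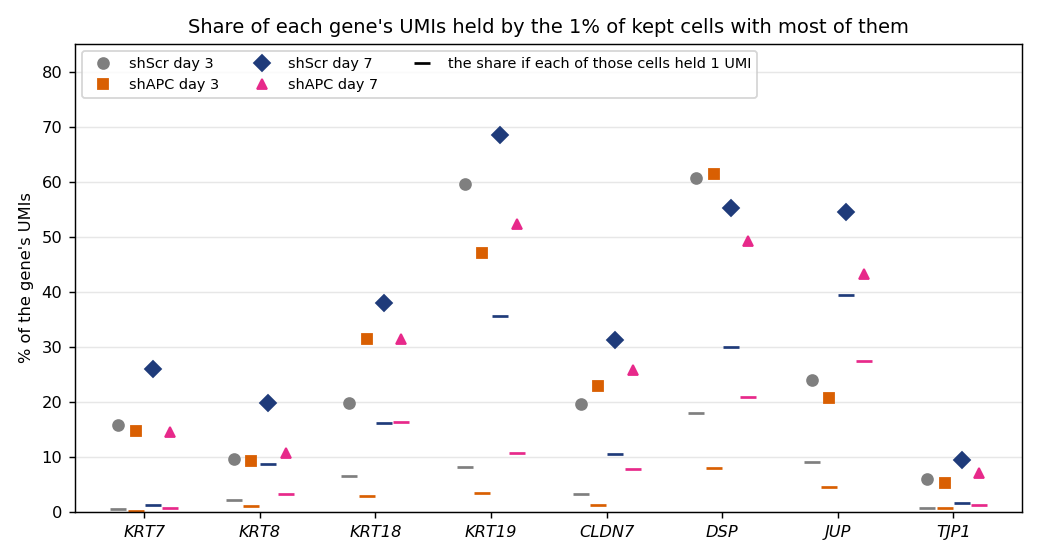
Percent of each gene's UMIs (vertical axis) held by the 1% of kept cells with the most UMIs of that gene, in each library; dashes mark the share that the same number of cells would hold with 1 UMI each. KRT19 at 47.0% to 68.5% and DSP at 49.3% to 61.4% stand above KRT8 at 9.29% to 19.7% and TJP1 at 5.19% to 9.46%. JUP, also low in count, ranged from 20.8% to 54.5%.

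CLDN7 (chr17:7259903-7263983, minus strand) had 343 UMIs (8.62 CPM, 7.73 to 9.58) in shScr day 3, 592 (16.9 CPM, 15.6 to 18.4) in shAPC day 3, 247 (7.91 CPM, 6.95 to 8.96) in shScr day 7 and 178 (6.26 CPM, 5.37 to 7.25) in shAPC day 7. The shAPC day 3 library stood alone above the others. The ratio to shScr was the largest of the members at day 3, at 0.97 (0.78 to 1.17), and was -0.34 (-0.62 to -0.05) at day 7. Cells with at least 3 CLDN7 UMIs numbered 26, 69, 13 and 8 in the 4 libraries, and in shAPC day 3 the 69 cells held 415 of the 592 UMIs. In shScr day 3 the 26 cells held 117 of 343 UMIs. Deeper cells reach 3 UMIs more readily, and the median depth was 49685.5 UMIs in shAPC day 3 against 35109 in shScr day 3. The CLDN7-high cells had KRT7 at 142 CPM against 50.5 in the others of shScr day 3, 185 against 73.0 in shAPC day 3, 237 against 67.6 in shScr day 7, and 46.6 against 67.7 in shAPC day 7. KRT7 was thus higher in them in 3 of the 4 libraries. KRT8 was at 20.5 against 12.5 CPM in shScr day 3 and at 20.2 against 19.3 in shAPC day 3, and in the day 7 libraries it rested on 2 and 4 UMIs in these cells. High KRT7 was not particular to cells chosen on KRT19 or CLDN7. Cells with at least 3 DSP UMIs had it at 109 against 53.8, 368 against 83.4, 369 against 68.3 and 157 against 67.1 CPM. Those chosen on JUP were lower in KRT7 in both shScr libraries, at 10.1 against 54.5 and 31.1 against 70.1 CPM.

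The plaque proteins of desmosomes were low. DSP (chr6:7541338-7586714, plus strand) had 61 UMIs (1.53 CPM) in shScr day 3, 88 (2.52) in shAPC day 3, 87 (2.79) in shScr day 7 and 67 (2.35) in shAPC day 7, with log2 ratios of 0.72 (0.23 to 1.21) and -0.24 (-0.72 to 0.23). Without the deepest 5% of cells the day 3 ratio was 0.47 (-0.04 to 0.98), and as a mean over cells of CPM it was -0.21. At day 3 it too was concentrated, since 6 cells of shScr and 8 of shAPC with at least 3 UMIs held 27 and 57 of the UMIs. At day 7 4 such cells in each library held 13 and 15 UMIs. These were 14.9% of the DSP UMIs in shScr and 22.4% in shAPC, where the same share for CLDN7 was 20.6% and 19.1%. Of the cells high in KRT19 and those high in DSP at this threshold, 0, 0, 0 and 1 were the same. Both groups were too small for this count to show whether they are separate. JUP (chr17:41754604-41786931, minus strand) had 121 UMIs (3.04 CPM), 154 (4.41), 66 (2.11) and 51 (1.79) in the same order of libraries. The day 7 libraries were the low ones, and the ratios to shScr were 0.54 (0.18 to 0.89) at day 3 and -0.24 (-0.79 to 0.31) at day 7. Without the deepest 5% of cells the first was 0.25 (-0.15 to 0.64).

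TJP1 (chr15:29699367-29968915, minus strand) is the scaffold of tight junctions. It had 1469 UMIs (36.9 CPM, 35.0 to 38.8) in shScr day 3, 1117 (32.0 CPM, 30.1 to 33.9) in shAPC day 3, 1607 (51.5 CPM, 49.0 to 54.0) in shScr day 7 and 1040 (36.6 CPM, 34.4 to 38.8) in shAPC day 7. The shScr day 7 library was the high one, and shAPC was below shScr at each day, with log2 ratios of -0.21 (-0.32 to -0.09) and -0.49 (-0.61 to -0.38). Among cells of at least 10000 UMIs, the 20% highest for 8 genes of cycling cells had TJP1 at 50.8 CPM against 34.2 in shScr day 3, at 69.6 against 48.7 in shScr day 7 and at 47.7 against 34.5 in shAPC day 7. In shAPC day 3 the values were 32.8 and 32.1 CPM, and their log2 ratio of 0.03 had an interval of -0.19 to 0.25.

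Between day 3 and day 7 the log2 ratios of KRT8, KRT19, CLDN7 and JUP were below 0 and that of TJP1 above 0 in both arms, while those of KRT7, KRT18 and DSP had opposite signs in the 2 arms. No difference between the arms was tested. In shScr, TJP1, DSP and KRT7 were higher at day 7, at 0.48, 0.86 and 0.37, and KRT8, KRT19 and JUP lower, at -0.43, -0.55 and -0.52, and the intervals of KRT18 and CLDN7 included 0. In shAPC, CLDN7, JUP and KRT18 were lower, at -1.44, -1.30 and -1.24, as were KRT7 and KRT8, at -0.37 and -0.36, where the median of all genes was -0.31. TJP1 was higher by 0.19 (0.07 to 0.32) in shAPC, and the intervals of KRT19 and DSP included 0. Past 1.5-fold in either direction were 1 of 8 members in shScr, where 10.8% of 12591 genes passed, and 3 of 8 in shAPC, where 28.1% of 12921 genes passed.

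The shAPC day 3 library also held cells high in ATF3. This gene, a transcription factor induced by stress, was at 44.7 CPM there against 1.03 CPM in shScr day 3, 15.4 in shScr day 7 and 3.37 in shAPC day 7. Cells with at least 5 ATF3 UMIs numbered 39 of 788 in shAPC day 3, 0 in shScr day 3, 12 in shScr day 7 and 6 in shAPC day 7, a split made after the data were seen. In shAPC day 3 KRT18 was at 29.7 CPM in the 39 cells and 4.61 in the other 749, JUP at 13.7 and 3.37, and KRT7 at 198 and 74.8. KRT8 was at 29.7 and 18.3 CPM and CLDN7 at 24.3 and 16.1. The 39 cells were deep, with a median of 95955 UMIs against 48303. In 18 of the other cells with at least 95955 UMIs, KRT18 was at 9.29 CPM (5.51 to 14.7) and JUP at 3.61 (1.45 to 7.45), below the ATF3 cells, while KRT7 was at 183 CPM (165 to 203), close to them.

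At day 7 the ATF3 cells showed KRT18 at 22.6 CPM against 4.80 in the other cells of shScr, from 14 UMIs, and at 15.3 against 2.91 in shAPC, from 4 UMIs. KRT7 was at 348 against 64.3 CPM in shScr day 7 and at 459 against 63.9 in shAPC day 7. Unlike at day 3, other cells of like depth were far below the ATF3 cells in KRT7. It was at 30.4 CPM (22.7 to 39.9) in 26 other shScr cells of at least 56603 UMIs. In 108 other shAPC cells of at least 41335 UMIs it was at 55.6 CPM (49.4 to 62.3). Without the ATF3 cells the day 3 ratio of KRT18 was 0.14 (-0.20 to 0.47) and that of JUP 0.15 (-0.24 to 0.54), so that both intervals included 0, and that of KRT7 was 0.46 (0.38 to 0.55). The ratios of KRT8 at 0.50, KRT19 at 0.67, CLDN7 at 0.90 and DSP at 0.69 moved little. The share of KRT18 in the KRT8 and KRT18 UMIs of shAPC day 3 was then 20.2% (17.3 to 23.3) in place of 26.9%, and its interval overlapped that of shAPC day 7, 13.0 to 19.6.

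**Figure D5:**
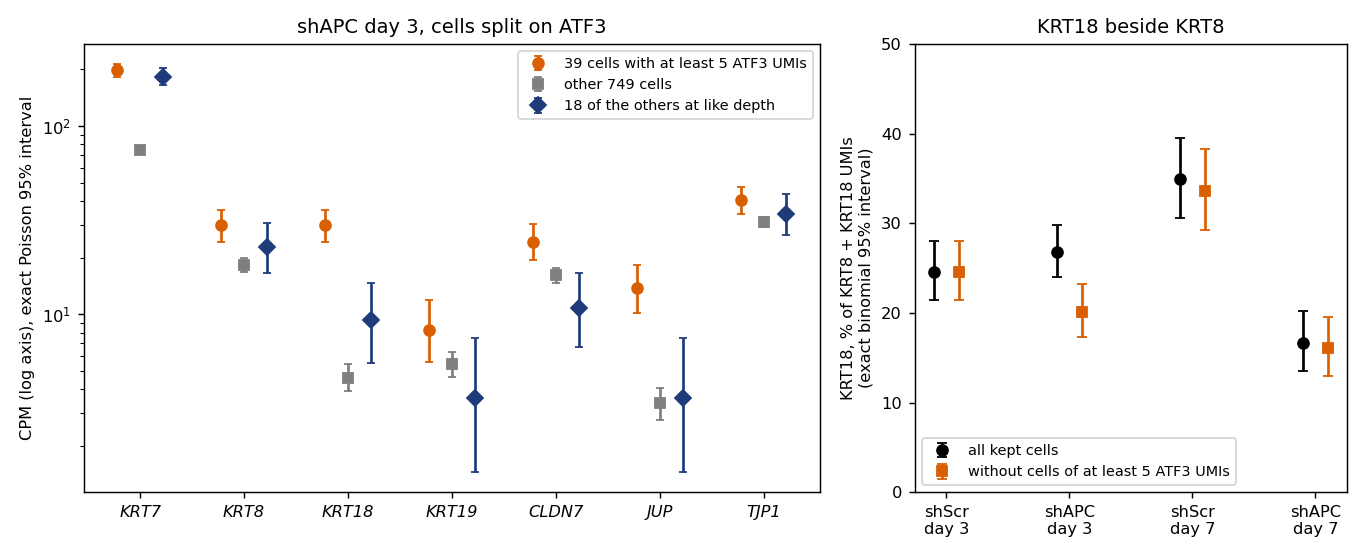
Left, CPM (log axis, exact Poisson 95% intervals) of 7 members in shAPC day 3 in the 39 cells with at least 5 ATF3 UMIs, in the other 749 cells and in 18 of the others with at least 95955 UMIs; KRT18 and JUP are highest in the ATF3 cells. Right, KRT18 as percent of KRT8 and KRT18 UMIs in each library with exact binomial 95% intervals, with and without those cells; shAPC day 3 goes from 26.9% to 20.2%.

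Shares of cells with a UMI followed depth. Unthinned, KRT7 was seen in 50% of shScr day 3 cells, 58.2% of shAPC day 3, 29.1% of shScr day 7 and 46.7% of shAPC day 7, and TJP1 in 52.8%, 57.4%, 30% and 40.7%. After each cell of at least 2000 UMIs (899, 673, 1198 and 1087 cells) was thinned to 2000 UMIs, KRT7 was seen in 11.8% (9.76 to 14.1), 14.4% (11.8 to 17.3), 13.6% (11.7 to 15.7) and 11.6% (9.75 to 13.6), and the 4 intervals overlapped. TJP1 was seen in 7.12%, 5.65%, 10.4% and 7.64%, with shScr day 7 above shAPC day 3 beyond their intervals. KRT8 was at 2.22% to 4.01% and CLDN7 at 1.10% to 2.67%. KRT18, KRT19, DSP and JUP were each at 0.334% to 1.34%, at most 10 cells per library, and no order was read from them. No cell type that should lack these genes was present, so the share due to free RNA could not be set.

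The rest of the junction genes were counted from lists of the same compartments. Of 20 further tight junction genes, 9 reached 1 CPM in some library and CLDN11, a claudin of myelin and Sertoli cells, alone reached 20 CPM. It had 163, 139, 182 and 90.3 CPM in the 4 libraries, and its shAPC/shScr log2 ratio was -0.23 at the early and -1.01 at the late harvest. Among the list's genes with 50 UMIs, 5 of 11 were at least 1.5-fold higher and 0 lower at day 3, where 26.8% of genes were higher, and 0 of 8 higher and 4 lower at day 7, where 8.1% were lower. Of 11 adherens junction genes 7 reached 20 CPM. They included the catenins CTNNA1 (97.9 to 136 CPM), CTNNB1 (64.0 to 86.8) and CTNND1 (36.9 to 47.0), which are parts of cadherin complexes. NECTIN2 was at 28.9 to 49.2 CPM, NECTIN3 at 13.1 to 25.6, the actin linker VCL at 68.2 to 117 and CDH11, a cadherin of mesenchyme, at 17.7 to 20.6 CPM. In this list 1 of 10 genes was at least 1.5-fold higher and 1 lower at day 3, and 0 higher and 2 lower at day 7. The catenins were thus present while CDH1 was not detected in 3 of the 4 libraries.

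Of 13 desmosome and plakin genes 5 reached 20 CPM. DSG2, the desmosomal cadherin found in most epithelia and in heart, was at 16.4 to 26.6 CPM, the plaque protein PKP2 at 14.8 to 27.8 and PERP at 56.0 to 76.3 CPM. The plakins PLEC and DST, which also serve cells without desmosomes, were at 163 to 258 and 102 to 142 CPM. At day 3 2 of 8 genes of this list were at least 1.5-fold higher and 0 lower, against 26.8% of all genes higher. At day 7 0 of 6 were past that fold in either direction, against 9.06% of all genes higher and 8.1% lower. Of the 51 other keratin genes, 42 were at or under 3 UMIs and 31 at 0. KRT10, a type I keratin best known from epidermis, was at 232 to 298 CPM, above KRT7 in each library, and its ratios to shScr were 0.20 and -0.14. KRT34, a type I hair keratin, was at 11.7, 50.9, 10.2 and 28.6 CPM.

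The genes whose pattern over the 4 libraries was nearest to that of KRT8, by the distance of centred log2(CPM + 1) over 5300 genes, were OAF (0.071), FOXD1 (0.086), ATP6AP1 (0.092), MARF1 (0.10) and SPRYD3 (0.11). For KRT18 they were PSMD7 (0.044), ANXA1 (0.061), MYL12A (0.078), FOSL1 (0.083) and RIPK2 (0.091). With 4 points per gene, many of the 5300 genes can lie this close.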

How the data were processed

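The authors aligned reads to hg38 and deposited raw UMI counts per gene and cell barcode for 4 libraries. Per the file headers, Cell Ranger 3.0.2 wrote both shScr matrices and 3.0.0 both shAPC matrices, so version and shRNA cannot be told apart. The virus is retroviral in the labels and lentiviral in the methods, the kit v2 or V3. Cell calling settings and annotation release are not given in the sources used here. The study's ComBat correction and imputation were not applied.

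Barcodes with at least 200 genes, 500 UMIs and under 5% mitochondrial UMIs were kept, doublets were not removed, and UMIs were summed per library. CPM have exact Poisson intervals, ratios exact conditional binomial (Clopper-Pearson) intervals and shares Clopper-Pearson intervals, at 95%. No test was run with 1 library per group. Counts at or under 3 gave no fold where both libraries were that low. Ratios relative to all genes used genes of at least 50 UMIs, or of at least 20 CPM with a pseudocount of 1 CPM. Named beside the members and APC were list genes and keratins of at least 20 CPM, set colonic and mesenchymal markers, and the 5 genes nearest to KRT8 and KRT18; KRT86 and ATF3 were named after their values were seen. The members and lists were chosen with earlier results of these data known. Cell thinning was random with a fixed seed. Positions are from GENCODE v44. Scripts used Python 3.11.15, NumPy 2.4.6, SciPy 1.17.1 and edgeR 4.0.16 (TMM), and were tested on simulated data.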

Additional observations from a re-analysis of the deposited data

Results flagged for a closer look

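For 5 genes the shAPC/shScr ratio had opposite signs at day 3 and day 7, which was not tested, since each day had 1 library per arm. How many of all genes changed sign was not counted, so the 5 have no background share beside them. The day 7 log2 ratio minus the day 3 log2 ratio was -1.53 for KRT18 and -1.31 for CLDN7, whose counting intervals excluded 0 at both days. It was -0.96 for DSP, -0.77 for JUP and -0.73 for KRT7, whose day 7 intervals included 0 in the kept cells. The median of all genes was 0.34 at day 3 and -0.01 at day 7, and without the ATF3 cells the day 3 ratios of KRT18 and JUP had intervals that included 0.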

How the results depend on the processing

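Each group had 1 library, so settings show the effect of processing alone. The summed members had a log2 ratio of 0.49 at day 3. It was 0.11 with TMM, 0.13 with median-of-ratios size factors, 0.38 without mitochondrial and ribosomal protein genes, 0.22 as a mean over cells of CPM, 0.42 with all deposited barcodes, 0.43 with a mitochondrial limit of 10%, 0.29 without the 5% of cells with the most UMIs and 0.32 without cells of at least 5 ATF3 UMIs. At day 7 it was -0.14, and -0.23 with the mean over cells, with all barcodes and with the 10% limit. Of the 16 member ratios, all 16 moved by less than their interval with cells of at least 2000 UMIs, and 9 with TMM. DSP reversed at day 3, to -0.21, as a mean over cells of CPM. The 222 genes past 2-fold at day 3 became 143 with median-of-ratios size factors, 127 without the deepest 5% of cells, 42 at a minimum of 100 CPM, 528 without a minimum and 1129 at 50 UMIs. The 117 at day 7 became 258 with the mean over cells, 34 at 100 CPM, 299 without a minimum and 662 at 50 UMIs. The share of KRT18 in shAPC day 3 was 21.1% without the deepest 5% of cells and 20.2% without ATF3 cells. The ATF3 setting and the 50 UMI minimum were chosen after seeing the data. The cause was not tested. Depth limits EPCAM and CDH1, for which no ratio could be had. No paired analysis was possible because the result comes from no test and each group has 1 library.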

Other observations

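KRT81, a type II hair keratin seen after its values were known, was at 0.578 CPM in shScr day 3, 5.98 in shAPC day 3, 0.833 in shScr day 7 and 9.0 in shAPC day 7, from 23, 209, 26 and 256 UMIs. It was 10.3-fold higher in shAPC at day 3, with an interval of 6.71 to 16.7, and 10.8-fold higher at day 7, with one of 7.21 to 16.9. Some type II hair keratins, such as KRT86, are near-identical to it, so how reads were split between them makes the count uncertain.

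CLDN1, a widespread epithelial claudin that stayed under 20 CPM and was also picked after its values were seen, went from 86 UMIs (shScr) to 122 (shAPC) at day 3, and from 150 to 24 at day 7. On the log2 scale shAPC differed from shScr by 0.69 (0.28 to 1.11) at day 3, and by -2.51 at day 7, with an interval of -3.20 to -1.88.

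KLF5, an epithelial zinc-finger factor picked in the same way, had log2 ratios of 0.83 (0.51 to 1.15) at day 3 and -0.72 (-1.12 to -0.33) at day 7, and KLF4 of 1.58 (1.40 to 1.76) and -0.44 (-0.67 to -0.20). With KRT18 and CLDN7, these genes were above shScr at day 3 and below it at day 7. The share of all genes with this pattern was not counted, and other genes of the same lists lacked it. CLDN15 of the tight junction list was higher in shAPC at both days, at 4.09 against 2.74 CPM and at 3.83 against 2.59.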
